A study of Homo sapiens with 3 samples.

Results

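The SLC25 family, the mitochondrial solute carriers, was described in 2 melanoma cell libraries. Its members were taken as every gene in the deposited tables whose symbol begins with SLC25A and a number, which gave 48 genes of the 20344 listed. No antisense or pseudogene entry carried such a symbol. Members of the same fold with other symbols, the uncoupling proteins UCP1 to UCP3 and the MTCH proteins, were read separately. The series measured messenger RNA in A375, a human melanoma cell line with mutant BRAF, and in cells labelled A375-VR, whose suffix the labels do not spell out. The libraries used were titled A375-VR, Prop and A375, Prop, with 1 library each; the sample with DMSO in its title was not analysed here. The labels disagree on what the libraries hold. The titles and cell line labels of these libraries name A375-VR and A375, whereas the protocol text of every sample speaks of A375-VR cells kept for 24 h with DMSO or 20 µM propranolol, a beta-adrenergic receptor blocker. In the titles both libraries carry the propranolol label. A difference between them may come from the cells, the treatment, the culture or the library preparation, and these cannot be told apart. Since each group is a single library, nothing replicates a value, p-values are left out, and each fold compares these libraries and not conditions.

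SLC25 carriers are small proteins of the inner mitochondrial membrane that pass metabolites between the matrix and the cytosol, mostly as exchange of one solute for another. They are encoded in the nucleus, handed through the outer membrane by the TOM complex and inserted by the TIM22 complex. Through them mitochondria export ATP and citrate, import ADP, phosphate, cofactors, iron and amino acids, and run the shuttles that move reducing equivalents.

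The family was not moved as a whole: in the A375-VR library 3 carriers were higher by 2-fold or more and 0 were lower by as much. Levels are FPKM, the fragments of a gene divided by its length and by the size of the library. A difference is log2(FPKM + 1) in the A375-VR library minus the same in the A375 library, and a size of 1 on that scale was called 2-fold. Genes whose FPKM was below 1 in both libraries were set aside. Of the 48 members, 36 passed that filter, and all 36 were at or above 1 in both libraries. The 3 called higher, 8.33% of these 36, were SLC25A1, SLC25A23 and SLC25A42; among all 10761 genes past the filter 3.14% were called higher. The count of members called lower was 0, where 0.613% of all genes were called. At a difference equal to 1.5-fold, 4 members (11.1%) were higher, SLC25A43 being the fourth, beside 11.6% of all genes. At that size 1 member, SLC25A24, was lower (2.78%), beside 4.21% of all genes. The difference was above 0 for 24 of the 36 members (66.7%) and for 60.3% of all genes. The median difference was 0.12 over the members and 0.10 over all genes, and the median size of the difference was 0.25 over the members and 0.26 over all genes. The medians and the shares at 1.5-fold lay near the background, and the share at 2-fold rests on 3 genes.

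Scaling bears on the small differences. When the libraries were centred on the median ratio, the median of all genes moved from 0.10 to 0, the share of all genes called 2-fold higher became 2.52% and the share called lower 0.929%. SLC25A1, SLC25A23 and SLC25A42 remained 2-fold higher under both that scaling and a trimmed mean of log ratios. SLC25A13, SLC25A14, SLC25A20, SLC25A26 and SLC25A33 changed sign under both. Small differences are to be read against that shift of 0.10.

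Whole reads could be recovered from the FPKM values, with implied totals of 16438482 in the A375-VR library and 17811339 in the A375 library. Members past the filter had a median of 571.5 recovered reads in the A375-VR library and 504 in the A375 library. Intervals on folds are 95% exact (Clopper-Pearson) intervals on those reads and cover counting error only. The recovered numbers are the smallest that fit, so true counts may be whole multiples of them. For some members the reads imply a length well under that of the canonical transcript, and their intervals may be too wide. Such members include SLC25A4 (2422 bp beside 4415 bp), SLC25A5 (750 bp beside 1307 bp) and SLC25A15 (1837 bp beside 3821 bp). By the intervals as computed, 15 members past the filter had a fold above 1, 6 had a fold below 1 and 15 had an interval that spanned 1. No such count was made over all genes, and the folds were not centred for the shift of 0.10, so the split has no background. The melanocyte lineage markers SOX10 (150 FPKM in the A375-VR library, 65.3 FPKM in the A375 library) and S100B (12.6 FPKM in the A375-VR library, 3.72 FPKM in the A375 library) were higher, and MITF was lower, at 3.47 FPKM in the A375-VR library and 6.47 FPKM in the A375 library. TYR was listed at 0 in both, and PMEL, MLANA, DCT and TYRP1 were under the filter. Of the keratinocyte list 2 of 6 passed, of the fibroblast list 2 of 6, of the endothelial list 1 of 5 and of the leukocyte list 0 of 6, with PTPRC, CD3E and CD68 listed at 0. The endothelial marker that passed, KDR, was called 2-fold higher at 1.84 FPKM in the A375-VR library and 0.394 FPKM in the A375 library (fold 4.66, 3.37 to 6.58). The fibroblast marker LUM had a fold of 1.64 and PDGFRB 1.08, and the keratinocyte markers KRT10 and KRT14 had folds of 1.25 and 1.27. The summed level of the keratinocyte list was 59.5 FPKM in the A375-VR library and 47.8 FPKM in the A375 library, that of the fibroblast list 6.74 FPKM in the A375-VR library and 4.80 FPKM in the A375 library, and that of the endothelial list 2.10 FPKM in the A375-VR library and 0.591 FPKM in the A375 library. The leukocyte list summed to 1.61 FPKM in the A375-VR library and 0.0595 FPKM in the A375 library. The part of these markers in the carrier differences was not tested.

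**Figure D1:**
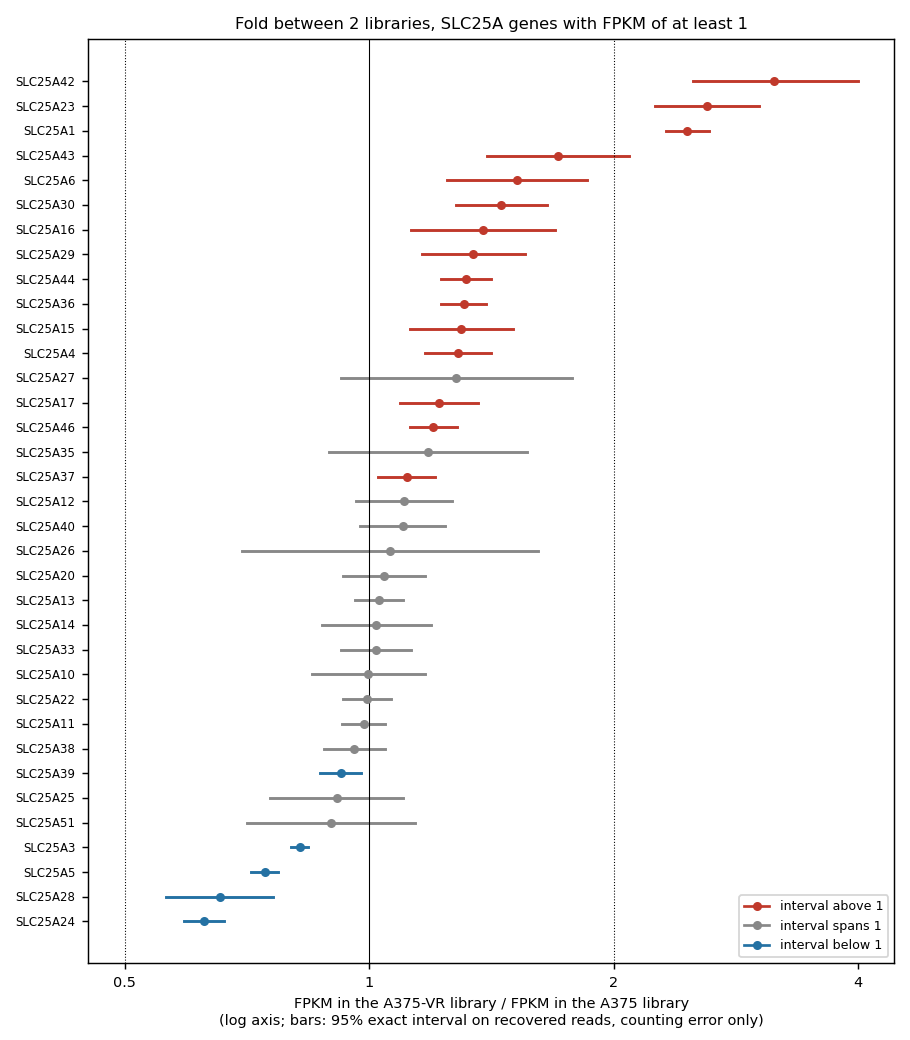
Fold in FPKM between the A375-VR library and the A375 library for 35 of the 36 SLC25A genes past the filter, on a log axis. Points are folds and bars are 95% exact intervals on recovered reads, covering counting error only; SLC25A42, SLC25A23 and SLC25A1 lie above the dotted line at 2, and SLC25A24 is lowest at 0.626.

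SLC25A1, the citrate carrier, exports citrate from the matrix in exchange for malate and so feeds the cytosolic pool of acetyl-CoA. It stood at 101 FPKM in the A375-VR library and 40.9 FPKM in the A375 library. That is a fold of 2.47 (95% interval 2.32 to 2.62), from 3475 recovered reads in the A375-VR library and 1527 in the A375 library. It was the second most abundant carrier in the A375-VR library and the fourth in the A375 library, and it held 10.9% of the summed FPKM of the family in the A375-VR library and 4.13% in the A375 library. The gene is on the minus strand of chromosome 22 from 19163094 to 19166252 (GRCh37, GENCODE release 44), with 9 exons in its canonical transcript.

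SLC25A23 exchanges ATP-Mg for phosphate under the control of calcium and so adjusts the adenine nucleotide content of the matrix. It stood at 7.76 FPKM in the A375-VR library and 2.98 FPKM in the A375 library, giving a fold of 2.60 (2.25 to 3.02). The recovered reads numbered 620 in the A375-VR library and 258 in the A375 library. Its rank in the family was 20 in the A375-VR library and 29 in the A375 library. It is encoded on the minus strand of chromosome 19 from 6436090 to 6465214, next to its relative SLC25A41.

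SLC25A42 brings coenzyme A into the matrix in exchange for adenine nucleotides. It stood at 3.92 FPKM in the A375-VR library and 1.24 FPKM in the A375 library. The fold was 3.15 (2.50 to 4.0), the highest among members past the filter, on 291 recovered reads in the A375-VR library and 100 in the A375 library. It is encoded on the plus strand of chromosome 19 from 19174803 to 19223839. None of the 50-base windows of the transcripts of these 3 genes occurred in another annotated gene. SLC25A42 shares 5.19% of its exon length with a long noncoding RNA on the opposite strand that the tables do not list. No source used here says whether strand was used in counting.

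The 250 bases before the RefSeq start of these 3 genes are shown because they are the carriers called 2-fold apart. Sequences are from RefSeq on GRCh38.p14, written 5′ to 3′ on the strand of the gene, at chr22:19178737-19178986 (minus) for SLC25A1, chr19:6459793-6460042 (minus) for SLC25A23 and chr19:19063744-19063993 (plus) for SLC25A42. Matched to GRCh37, each window ends directly before the start of the canonical GENCODE transcript. For SLC25A23 another annotated transcript begins further upstream, so its window ends 5410 bases inside the gene span given above. Capitals mark GGGCGG or its reverse complement CCGCCC, the GC box, in SLC25A1, and CCAAT or its reverse complement ATTGG, the CCAAT box, in the others.
SLC25A1: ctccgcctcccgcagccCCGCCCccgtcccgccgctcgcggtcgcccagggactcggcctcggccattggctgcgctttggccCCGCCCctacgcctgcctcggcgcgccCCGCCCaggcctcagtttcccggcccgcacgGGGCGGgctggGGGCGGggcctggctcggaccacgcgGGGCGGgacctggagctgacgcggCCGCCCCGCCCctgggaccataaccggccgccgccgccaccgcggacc
SLC25A23: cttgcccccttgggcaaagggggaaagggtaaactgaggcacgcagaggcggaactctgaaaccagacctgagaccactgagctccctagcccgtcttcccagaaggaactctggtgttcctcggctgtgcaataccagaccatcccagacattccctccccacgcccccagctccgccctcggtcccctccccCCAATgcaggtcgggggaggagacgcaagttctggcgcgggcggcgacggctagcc
SLC25A42: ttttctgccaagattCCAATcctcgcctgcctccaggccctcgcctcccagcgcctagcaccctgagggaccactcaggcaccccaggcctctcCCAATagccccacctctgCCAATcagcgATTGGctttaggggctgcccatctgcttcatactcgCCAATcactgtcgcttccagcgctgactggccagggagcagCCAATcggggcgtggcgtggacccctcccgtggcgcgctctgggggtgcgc
The window of SLC25A1 holds the GC box letters 8 times, one pair sharing bases, and 0.584% of the 35116 promoter windows hold at least as many. Its base composition is 81.6% G or C. The median over members, taking the highest window of each gene, was 66.0%, and the plain median over all windows was 58.0%. SLC25A42 holds the CCAAT letters 6 times, a number reached by 0.105% of all windows, and SLC25A23 holds them once. Both motifs were searched after the data had been seen, and only 1 of them was marked in each gene. Left unmarked, the CCAAT letters occur 1 time in SLC25A1, and 32.0% of all windows hold at least 1. The GC box letters occur 2 times in SLC25A23, a number reached by 24.3% of all windows, and 0 times in SLC25A42. Of the 40 members with a window, 20 held CCAAT, beside 32.0% of all windows, and 30 held the GC box, beside 42.6%. A member was counted if any of its windows held the letters, whereas the shares over all windows count each window. Letters of the sterol regulatory element, TCACCCCAC, were in 0 member windows and in 0.362% of all windows. With 1 open position, TCACNCCAC, they were in the window of SLC25A40 alone among the members and in 0.883% of all windows. The cAMP response element TGACGTCA was in the windows of SLC25A25, SLC25A33 and SLC25A36 (1.65% of all windows). The E-box CACGTG was in windows of 8 members (6.34% of all windows) and the AP-1 letters TGACTCA in those of SLC25A22 and SLC25A48 (4.20% of all windows). All motifs were read on both strands. A match describes letters in a window and not a bound site. The lack of a match covers only the letters given here, within the 250 bases before the start.

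Genes next to the 3 carriers were read to see whether whole neighbourhoods differed, with 4 genes past the filter on each side. The 8 neighbours of SLC25A1 had folds of 0.951 to 1.85 with a median of 1.11, and 0 were called 2-fold apart. The 8 neighbours of SLC25A42 had folds of 0.437 to 1.34 with a median of 1.02. One of them, NR2C2AP, was 2-fold lower. Around SLC25A23 the range was 0.638 to 2.43 with a median of 1.4. There TNFSF9, a ligand of the tumour necrosis factor family, was 2-fold higher at 42.0 FPKM in the A375-VR library and 17.3 FPKM in the A375 library. Next to it CD70, another such ligand, had 75.6 FPKM in the A375-VR library and 38.8 FPKM in the A375 library. On the other side of SLC25A23, KHSRP, an RNA-binding protein gene, was at 76.3 FPKM in the A375-VR library and 104 FPKM in the A375 library.

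**Figure D2:**
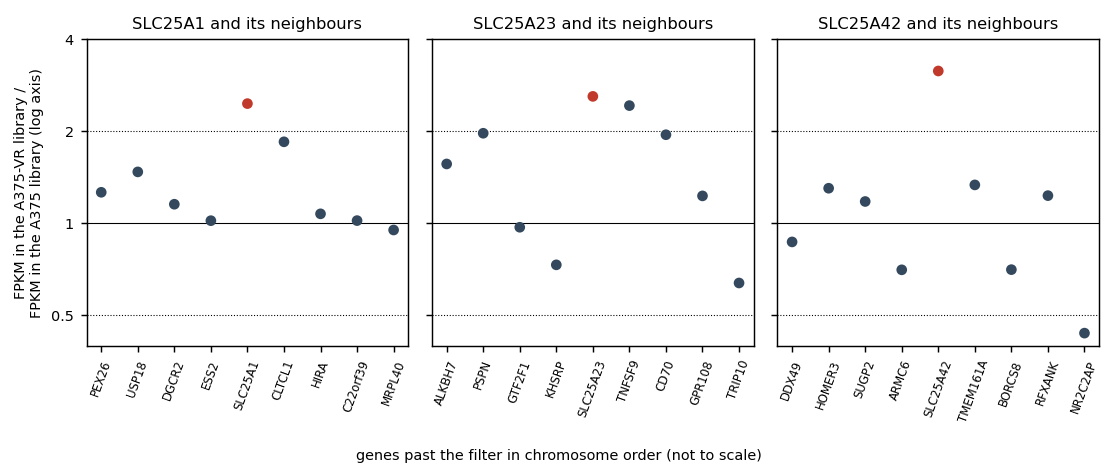
Fold in FPKM (A375-VR library over A375 library, log axis) of the 3 carriers called 2-fold higher, in red, and of the 4 genes past the filter on each side in chromosome order, in dark grey. Each carrier stands above its plotted neighbours, with TNFSF9 beside SLC25A23 closest at a fold of 2.43.

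The adenine nucleotide carriers, which exchange cytosolic ADP for matrix ATP, dominated the family. SLC25A5, the isoform of dividing cells, was at 364 FPKM in the A375-VR library and 489 FPKM in the A375 library, a fold of 0.744 (0.716 to 0.773). It alone made up 39.3% of the summed FPKM of the family in the A375-VR library and 49.3% in the A375 library. SLC25A4, the isoform of heart and muscle, went the other way with 24.2 FPKM in the A375-VR library and 18.8 FPKM in the A375 library (fold 1.29, 1.17 to 1.41). SLC25A6, another isoform, had 6.94 FPKM in the A375-VR library and 4.57 FPKM in the A375 library (1.52, 1.25 to 1.86). Its gene lies in the region shared by X and Y, where reads can be placed on either copy. SLC25A31, known from testis, was listed at 0 in both. SLC25A5 accounted for 92.1% of the level of these isoforms in the A375-VR library and 95.4% in the A375 library, and SLC25A4 for 6.14% in the A375-VR library and 3.68% in the A375 library. The sum of the isoforms was 395 FPKM in the A375-VR library and 512 FPKM in the A375 library. Coding sequences of SLC25A5 and SLC25A6 are 78.7% identical and those of SLC25A4 and SLC25A5 77.3%, and 4.45% of the windows of SLC25A5 recur elsewhere, all in its own pseudogenes. SLC25A3, which imports the phosphate that ATP synthesis uses, was at 75.2 FPKM in the A375-VR library and 91.5 FPKM in the A375 library (0.821, 0.801 to 0.842).

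**Figure D3:**
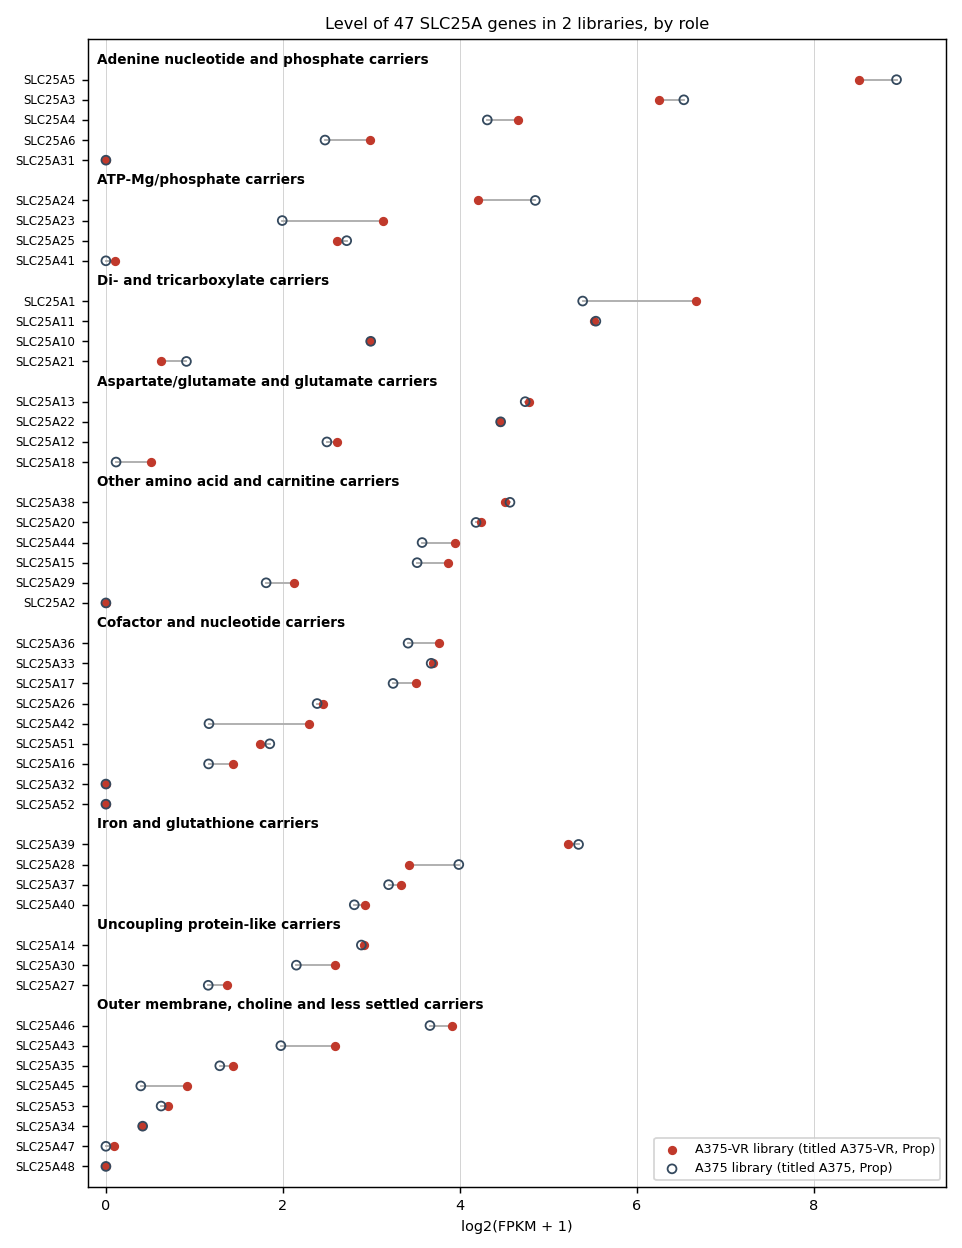
Level of 47 of the 48 SLC25A genes as log2(FPKM + 1), grouped by role, with the A375-VR library as filled red points and the A375 library as open dark circles. SLC25A5 is highest in both libraries, 5 genes sit at 0 in both, and the wide gaps are those of SLC25A1, SLC25A23 and SLC25A42.

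Within the ATP-Mg/phosphate carriers the members differed in direction. SLC25A24, the most abundant of them, was at 17.5 FPKM in the A375-VR library and 27.9 FPKM in the A375 library. Its fold of 0.626 (0.592 to 0.663) was the lowest among members past the filter. SLC25A25 was at 5.10 FPKM in the A375-VR library and 5.60 FPKM in the A375 library, with an interval that spanned 1. SLC25A41 had 2 recovered reads in the A375-VR library and 0 in the A375 library. As a share of the group, SLC25A23 made up 25.5% in the A375-VR library and 8.17% in the A375 library, and SLC25A24 57.5% in the A375-VR library and 76.5% in the A375 library. The coding sequences of SLC25A23 and SLC25A24 are 63.5% identical and those of SLC25A23 and SLC25A25 70.9%. Exons of SLC25A24 overlap a noncoding RNA on the opposite strand over 13.7% of their length.

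Of the di- and tricarboxylate carriers, only SLC25A1 was called apart among the 3 past the filter. SLC25A11, the oxoglutarate/malate carrier of the malate-aspartate shuttle, was at 44.8 FPKM in the A375-VR library and 45.5 FPKM in the A375 library (0.985, 0.926 to 1.05). SLC25A10, the dicarboxylate carrier, was at 6.94 FPKM in the A375-VR library and 6.96 FPKM in the A375 library. It shares 62.0% of its windows with an annotated read-through gene. SLC25A21, the oxodicarboxylate carrier, was under the filter at 0.542 FPKM in the A375-VR library and 0.879 FPKM in the A375 library. SLC25A1 thus made up 65.9% of the level of the group in the A375-VR library and 43.4% in the A375 library.

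**Figure D4:**
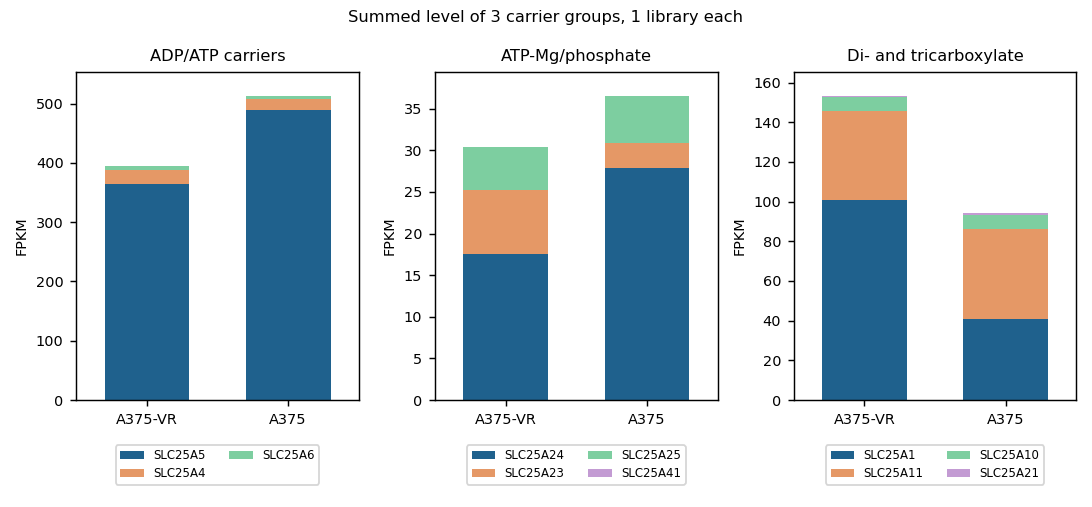
Summed FPKM of 3 carrier groups, stacked by gene, with the A375-VR library left and the A375 library right in each panel. SLC25A5 fills most of the ADP/ATP carrier bars, SLC25A23 holds 25.5% of the ATP-Mg/phosphate bar in the A375-VR library and 8.17% in the A375 library, and SLC25A1 makes the di- and tricarboxylate bar of the A375-VR library the taller one.

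The aspartate/glutamate and glutamate carriers lay close together in both libraries. SLC25A13, the main aspartate/glutamate exchanger here, was at 26.4 FPKM in the A375-VR library and 25.7 FPKM in the A375 library. Its relative SLC25A12, 72.9% identical in coding sequence, was at 5.13 FPKM in the A375-VR library and 4.65 FPKM in the A375 library. The glutamate carrier SLC25A22 was at 20.9 FPKM in the A375-VR library and 21.0 FPKM in the A375 library. The interval spanned 1 for each of these 3. The second glutamate carrier, SLC25A18, was under the filter with 33 recovered reads in the A375-VR library and 7 in the A375 library, a fold of 5.11 (2.22 to 13.7).

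Among the other amino acid carriers and the carnitine carrier, 5 of 6 passed the filter and 0 were 1.5-fold apart. SLC25A38, which carries glycine for haem synthesis, was the most abundant at 21.8 FPKM in the A375-VR library and 22.7 FPKM in the A375 library. SLC25A20, which brings acylcarnitines in for oxidation, was at 17.9 FPKM in the A375-VR library and 17.2 FPKM in the A375 library. The other 3 were higher by interval. SLC25A44, a carrier of branched-chain amino acids, was at 14.4 FPKM in the A375-VR library and 10.9 FPKM in the A375 library (1.32, 1.23 to 1.41). The ornithine carrier SLC25A15 was at 13.6 FPKM in the A375-VR library and 10.5 FPKM in the A375 library (1.3, 1.12 to 1.5). Its relative SLC25A2, 87.7% identical in coding sequence, was listed at 0 in both. SLC25A29, a carrier of basic amino acids, was at 3.37 FPKM in the A375-VR library and 2.51 FPKM in the A375 library.

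Of the cofactor and nucleotide carriers 8 of 10 passed, and SLC25A42 was the only one called 2-fold apart. SLC25A36, a pyrimidine nucleotide carrier, was at 12.6 FPKM in the A375-VR library, the most abundant there, and 9.67 FPKM in the A375 library (1.31, 1.23 to 1.39). Its partner in that role, SLC25A33, was at 12 FPKM in the A375-VR library and 11.8 FPKM in the A375 library, where it was the most abundant. SLC25A17, the peroxisomal carrier of coenzyme A and other cofactors, was at 10.3 FPKM in the A375-VR library and 8.49 FPKM in the A375 library, and SLC25A16 was at 1.70 FPKM in the A375-VR library and 1.24 FPKM in the A375 library. SLC25A26, which imports S-adenosylmethionine, was at 4.49 FPKM in the A375-VR library and 4.23 FPKM in the A375 library. Its recovered reads of 48 in the A375-VR library and 49 in the A375 library imply a length of 650 bp, under the 2035 bp of its canonical transcript, so its true counts are probably a multiple and its interval too wide. SLC25A51, the importer of NAD, was at 2.35 FPKM in the A375-VR library and 2.61 FPKM in the A375 library. Its copy SLC25A52 is 97.6% identical in coding sequence and was listed at 0, so reads of the pair may have been placed on either gene. SLC25A32, the folate and FAD carrier, was listed at 0 in both libraries. It shares 87.9% of its windows with an annotated read-through gene, and how reads were assigned between them was not tested.

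Of the iron and glutathione carriers 0 were 1.5-fold apart on the difference scale. SLC25A28, mitoferrin 2, was at 9.74 FPKM in the A375-VR library and 14.9 FPKM in the A375 library (0.655, 0.563 to 0.761). SLC25A37, mitoferrin 1, was at 9.07 FPKM in the A375-VR library and 8.16 FPKM in the A375 library (1.11, 1.03 to 1.21), a difference of 0.14 beside the shift of 0.10 of all genes. SLC25A28 made up 51.8% of the mitoferrin level in the A375-VR library and 64.6% in the A375 library. Both deliver iron to the matrix for iron-sulphur cluster and haem synthesis, SLC25A37 chiefly in red cell precursors. Of the glutathione carriers, SLC25A39 was at 36.5 FPKM in the A375-VR library and 39.6 FPKM in the A375 library. SLC25A40 was at 6.60 FPKM in the A375-VR library and 6.0 FPKM in the A375 library, with an interval that spanned 1.

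The carriers related to uncoupling proteins were low. SLC25A14 was at 6.53 FPKM in the A375-VR library and 6.40 FPKM in the A375 library. SLC25A30 was at 5.01 FPKM in the A375-VR library and 3.45 FPKM in the A375 library (1.46, 1.28 to 1.66). SLC25A27 was at 1.57 FPKM in the A375-VR library and 1.23 FPKM in the A375 library. Of UCP1, UCP2 and UCP3 themselves, UCP2 alone passed the filter, with a fold of 0.984, and the MTCH proteins, outer membrane relatives of the carriers, had folds of 0.967 (MTCH1) and 1.02 (MTCH2).

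Among the outer membrane, choline and less settled carriers 3 of 8 passed. SLC25A46, an outer membrane protein of mitochondrial fission and lipid transfer, was at 14 FPKM in the A375-VR library and 11.7 FPKM in the A375 library (1.20, 1.12 to 1.28). SLC25A43, whose substrate is not settled, was at 5.02 FPKM in the A375-VR library and 2.94 FPKM in the A375 library (1.71, 1.40 to 2.09). It lies on chromosome X at 118533299 to 118588441, directly beside SLC25A5 at 118602385 to 118605359, and these neighbours on the same strand had differences of 0.61 and −0.43. SLC25A35 was at 1.70 FPKM in the A375-VR library and 1.44 FPKM in the A375 library, and RANGRF on the opposite strand overlaps 28.7% of its exons. Under the filter, SLC25A45 had 0.883 FPKM in the A375-VR library and 0.314 FPKM in the A375 library, a fold of 2.81 (1.97 to 4.07). It had 114 recovered reads in the A375-VR library and 44 in the A375 library.

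In all, 12 members were under the filter. SLC25A2, SLC25A31, SLC25A32, SLC25A48 and SLC25A52 were listed at 0 in both libraries. The other 7 were SLC25A18, SLC25A21, SLC25A34, SLC25A41, SLC25A45, SLC25A47 and SLC25A53. SLC25A34 and SLC25A53 had intervals that spanned 1, and SLC25A47 had 2 recovered reads in the A375-VR library and 0 in the A375 library.

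The summed level of the family was 926 FPKM in the A375-VR library and 991 FPKM in the A375 library, a ratio of 0.934, or 0.355% of all FPKM in the A375-VR library and 0.374% in the A375 library. Without SLC25A5 the order turned, with 562 FPKM in the A375-VR library and 502 FPKM in the A375 library. Without SLC25A1 as well, the sum was 461 FPKM in each library. Over the 36 members the difference had a Spearman rho of −0.36 with mean level (Pearson r −0.26), 0.19 with recovered gene length and −0.14 with exon number; these are descriptions over genes that share both libraries.

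Genes that work with the carriers were read from lists by role, naming up to the 3 that differed most in each. The list with the largest median was the one downstream of citrate export, with a median difference of 0.91 over 9 genes, of which 4 were called 2-fold higher, beside 3.14% and a median of 0.10 over all genes past the filter. ACSS2, which makes cytosolic acetyl-CoA from acetate, was at 38.5 FPKM in the A375-VR library and 3.35 FPKM in the A375 library (11.5, 10.3 to 12.9). FASN, the fatty acid synthase, was at 120 FPKM in the A375-VR library and 36.1 FPKM in the A375 library (3.33, 3.24 to 3.43). ACLY, which splits the citrate that SLC25A1 exports, was at 127 FPKM in the A375-VR library and 56.1 FPKM in the A375 library (2.27, 2.20 to 2.35). ACACA was the fourth, with a fold of 2.28. In the same list citrate synthase (CS) had a fold of 0.785.

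**Figure D5:**
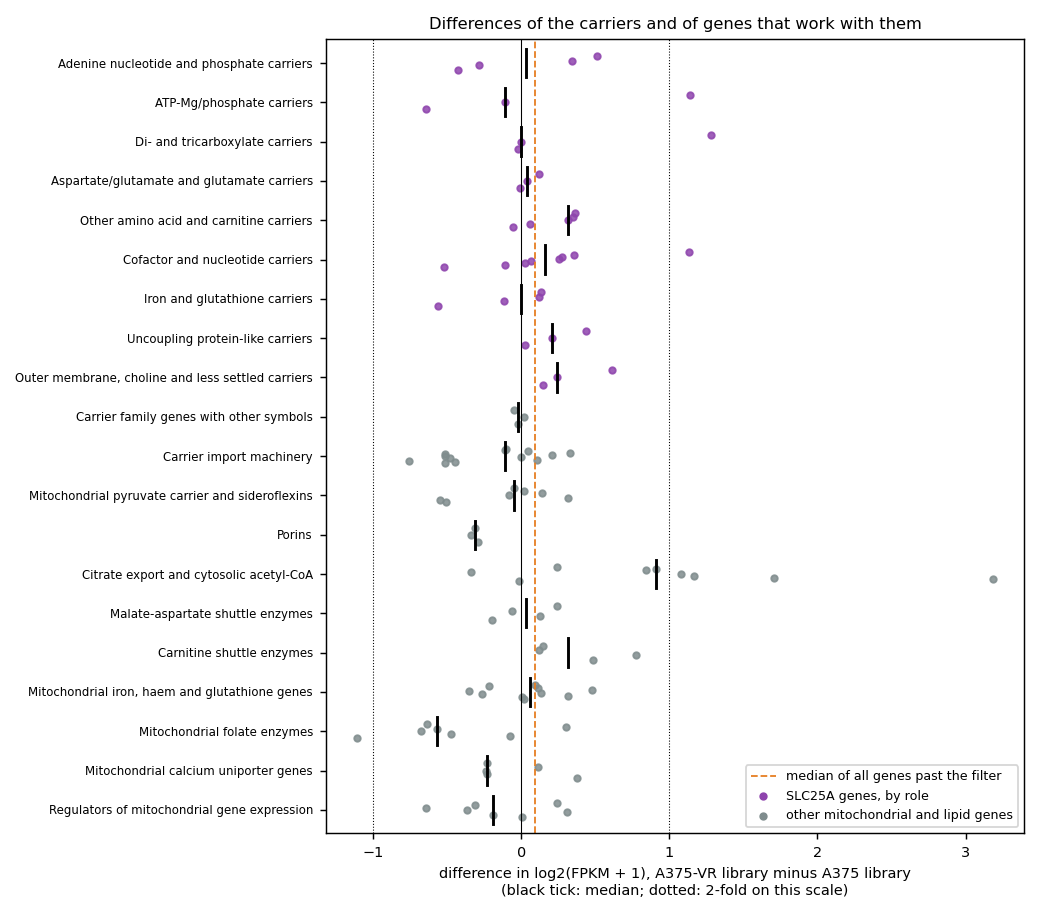
Difference in log2(FPKM + 1), A375-VR library minus A375 library, for each SLC25A gene past the filter by role (purple) and for genes that work with the carriers (grey), with black ticks at list medians and an orange line at the median of all genes. The citrate export list lies furthest right with a median of 0.91, and the folate enzymes (−0.56) and porins (−0.31) lie to the left.

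Several other lists had medians below 0, where 60.3% of all genes past the filter were above 0 and their median was 0.10. The porins VDAC1, VDAC2 and VDAC3, through which metabolites cross the outer membrane, had folds of 0.803, 0.816 and 0.787 and a list median of −0.31. Of the 13 genes of the carrier import route 9 were below 0, with a median of −0.11. TOMM40, the channel of the TOM complex, was at 55.3 FPKM in the A375-VR library and 94.0 FPKM in the A375 library (0.588, 0.563 to 0.614). The small chaperones TIMM9 and TIMM10 that hand carriers across the intermembrane space had folds of 0.680 and 0.698. Of the 7 folate enzyme genes 6 were below 0, with a median of −0.56. TYMS, whose 3′ end overlaps the antisense gene ENOSF1, was called 2-fold lower, as were 0.613% of all genes, at 8.87 FPKM in the A375-VR library and 20.2 FPKM in the A375 library. MTHFD1L had a fold of 0.608 and MTHFD2 a fold of 0.636.

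The carnitine enzymes, partners of SLC25A20, had a median of 0.32 over the 4 past the filter, with CRAT at a fold of 1.93, CPT1A at 1.54 and CPT2 at 1.17. The malate-aspartate shuttle enzymes, partners of SLC25A11, SLC25A12 and SLC25A13, had a median of 0.03, with folds of 1.19 (MDH1), 0.869 (GOT2) and 1.10 (GOT1). In the iron, haem and glutathione list the median was 0.06, with GCLC at 1.47 and FECH at 1.28. The pyruvate carrier and sideroflexin list had a median of −0.05, and SFXN2 (0.594), SFXN4 (0.692) and SFXN3 (1.26) differed most. The calcium uniporter list had a median of −0.23, with SMDT1 at 1.32, MCU at 0.830 and MCUB at 0.836. Among regulators of mitochondrial gene expression the median was −0.19, with TFAM at 0.626, PPRC1 at 0.767 and NRF1 at 0.765. PPARGC1A, a coactivator of mitochondrial genes, was under the filter at 0.862 FPKM in the A375-VR library and 0.0775 FPKM in the A375 library. Its fold was 11.1 (6.54 to 20.4), on 154 recovered reads in the A375-VR library and 15 in the A375 library.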

How the data were processed

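Messenger RNA of 2 libraries was used. Per the series design text, the kit was TruSeq Stranded mRNA, reads were 150 bp pairs, and TopHat (1.3.3) placed them on GRCh37. How reads were counted, on which annotation and whether by strand is not given in the sources used here. Values deposited by the authors are FPKM, 1 per gene and library. From them log2(FPKM + 1) was differenced, with a filter of FPKM at least 1 in at least 1 library. Whole reads were recovered as the smallest whole numbers whose ratio matched that of the FPKM values (relative tolerance 1e-09), with the library totals taken as the multiple, of 12 tried, at which implied gene lengths best matched GENCODE release 44 (15.4% of 13905 genes equal, against 10.5% at the next best multiple). On simulated data the recovery was tested only for the ratio of reads between libraries. The choice of multiple, the implied lengths and the absolute reads were not tested there. Intervals were checked on simulated and not on recovered reads. Of 43 members with a recovered length, 27 were within 2% of the GENCODE exon length. Gene positions and shared 50-base windows came from GENCODE on GRCh37, promoters from RefSeq on GRCh38.p14, with coordinates never converted. Members and lists were chosen with earlier results of these data known. Named genes were the members at least 1.5-fold apart, the most abundant of each role, members of close paralog pairs, and up to 3 genes with the largest difference of each list; all others named were chosen after their values were seen. Some genes that fall under these rules are not reported here by name. Alternatives were another pseudocount, no filter or a stricter one, 4 other scalings and a smaller fold. Removal of antisense and pseudogene entries was also planned, but there were none, so it could not change a result. Another pseudocount cannot change the sign of a difference. Python 3.11.15, numpy 2.4.6, pandas 2.3.3, scipy 1.17.1, matplotlib 3.10.9 and biopython 1.88 were used.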

Additional observations from a re-analysis of the deposited data

How the results depend on the processing

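Members 2-fold higher numbered 3 as reported and between 2 and 4 under the other settings except rescaling both libraries to a common sum without the mitochondrially encoded genes. That setting gave 5 of 41 members past the filter, adding SLC25A18 and SLC25A45, with 6.70% of all genes higher. SLC25A42 was not counted with a filter at FPKM 5, which gave 2 of 29 members, beside 3.40% of all genes. The share of all genes called higher also moved with the setting. It was 6.40% with a pseudocount of 0.1 (3 of 36 members), 6.39% with a common sum (4 of 41) and 11.6% at 1.5-fold (4 of 36). Without a filter it was 1.66% (3 of 48). Members lower numbered 0 under every setting except the 1.5-fold threshold, which gave 1, SLC25A24. The count above 0 was lowest at 18 of 29 members with a filter at FPKM 5, beside 55.7% of all genes. Rescaling to a common sum, with or without the mitochondrially encoded genes, gave the highest count, 30 of 41. All genes then stood at 63.2% and 63.5%. The median difference of the members ranged from 0.02 to 0.16, the lowest with a trimmed mean of log ratios. The median over all genes moved too. It was −0.004 with the trimmed mean and 0.15 with rescaling without the mitochondrially encoded genes, the setting of the highest member median. The difference of SLC25A10, SLC25A11 and SLC25A22 changed sign with rescaling to a common sum. No paired analysis was possible because there is 1 library per group, and no library could be left out. Depth limits the members under the filter; unreplicated values cannot show how far cultures of one kind differ.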
